A study of Mus musculus with 6 samples.

Results

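Mature osteoclasts, the bone-resorbing cells, are recognised by a small set of genes for acid secretion, matrix digestion, attachment to bone and cell fusion. The levels of 10 such genes, Acp5, Ctsk, Mmp9, Car2, Atp6v0d2, Itgb3, Dcstamp, Ocstamp, Calcr and Oscar, were followed across 6 RNA sequencing libraries. They were chosen by gene symbol from the deposited count table, and each matched 1 of its 41921 rows. The libraries came from RAW264.7, an established mouse monocyte/macrophage line of BALB/c background labelled wild type, whose cells can become osteoclast-like when given RANKL. In 3 libraries the labelled condition was RANKL and in the other 3 it was albiflorin, a monoterpene glycoside of peony root. All 6 carry the label osteoclast differentiation and one protocol text, which has cells receive 50 ng/mL RANKL 3 days past confluence. Whether the albiflorin cells also received RANKL is not stated apart from that text, and neither the dose of albiflorin nor the harvest time is given in the labels. No untreated library was analysed here, so the response of these genes to RANKL itself was not measured. Nothing in the labels says that replicates were separate cultures, so the spread behind each p-value may be a technical one.

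RANKL binds its receptor RANK on myeloid precursors, and the signal runs through NF-kB and AP-1 to the transcription factor NFATc1, which works with AP-1, PU.1 and MITF on the promoters of many genes of the mature cell. The precursors then fuse into giant cells that seal themselves to bone through the integrin made of alpha v and beta 3. They acidify the sealed space with a proton pump fed by carbonic anhydrase and digest the matrix with cathepsin K and metalloproteinases.

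RefSeq promoter sequence (GRCm38.p6, another assembly than that of the count table) was held for 4 of the 10 genes, with 3 start sites for Acp5, 2 for Calcr and 1 each for Ctsk and Oscar. Shown here are the 250 bases upstream of a start of Acp5, which was well counted, and of Ctsk, which was near the counting floor. Both genes are described in the literature as NFATc1 targets. Of the Acp5 starts, the one with the most matches is printed. Capitals mark matches on either strand to TGANTCA (AP-1), GGAAA (the NFAT core) or GAGGAA (a PU.1 core), none of which overlap here.
Acp5, chr9:22130599-22130848, minus strand: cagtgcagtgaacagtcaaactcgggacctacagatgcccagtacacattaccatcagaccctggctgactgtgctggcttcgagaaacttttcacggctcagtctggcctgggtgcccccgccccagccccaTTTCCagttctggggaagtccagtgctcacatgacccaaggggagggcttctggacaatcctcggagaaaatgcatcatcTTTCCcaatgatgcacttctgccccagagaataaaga
Ctsk, chr3:95498960-95499209, plus strand: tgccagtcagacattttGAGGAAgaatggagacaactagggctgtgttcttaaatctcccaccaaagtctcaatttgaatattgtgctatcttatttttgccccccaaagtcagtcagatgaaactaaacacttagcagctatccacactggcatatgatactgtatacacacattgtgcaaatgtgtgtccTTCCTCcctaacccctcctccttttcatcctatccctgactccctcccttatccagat
The Acp5 window held 2 NFAT cores, starting 117 and 37 bases before the start site, and the windows of its other 2 starts held 1 each. The Ctsk window held 0 NFAT cores and 2 PU.1 cores. Of the other windows, that of Oscar held 3 NFAT cores and those of Calcr 0 and 1. None of the 7 held an AP-1 match. Over 32851 RefSeq starts, windows of this length held the NFAT core in 55.6%, the PU.1 core in 23.3% and the AP-1 letters in 6.7%, so these matches are common letters and describe the windows only.

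The libraries held 13673284 to 15489482 counts and detected 17609 to 18283 rows each. Macrophage markers were abundant: the FPKM (reads scaled by gene length and library total) of the 9 markers found summed to 1360 to 1525 with RANKL and 1554 to 1587 with albiflorin, although Marco was at 0 and Itgam had 1 count in all. Of the 7 macrophage markers tested, 1 was called higher and 1 lower with albiflorin, beside 12.4% higher and 11.4% lower over all genes tested. Markers of other cells were low, with sums of 1.02 to 1.416 FPKM for 6 dendritic cell genes, 0.391 to 0.677 for 6 osteoblast genes and 0.446 to 1.17 for 7 neutrophil genes across all libraries. Of the dendritic genes Cd209a was at 0, of the osteoblast genes Ibsp and Dmp1, and of the neutrophil genes S100a9 and Ly6g. The dendritic gene Zbtb46 had 95 to 137 counts per library, with means of 0.911 FPKM with RANKL and 1.03 with albiflorin. The osteoblast gene Runx2 stood at 0.294 and 0.208 FPKM. Both are in the range of the lower osteoclast markers below.

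The 10 osteoclast markers spanned the range of the table, from among the most abundant mRNAs to none. Car2 alone made up 91.3% to 92.5% of their summed FPKM, which was 345 to 352 with RANKL and 400.3 to 459 with albiflorin. Without Car2 the other 9 summed to 27.4 to 30.2 and 31.3 to 34.8 FPKM. Of the 10, Ctsk and Oscar were too low to test and Calcr had no count. Only some of the markers of mature osteoclasts were thus well counted in these libraries. In bulk RNA, fewer osteoclast-like cells and less RNA per cell cannot be told apart.

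**Figure D1:**
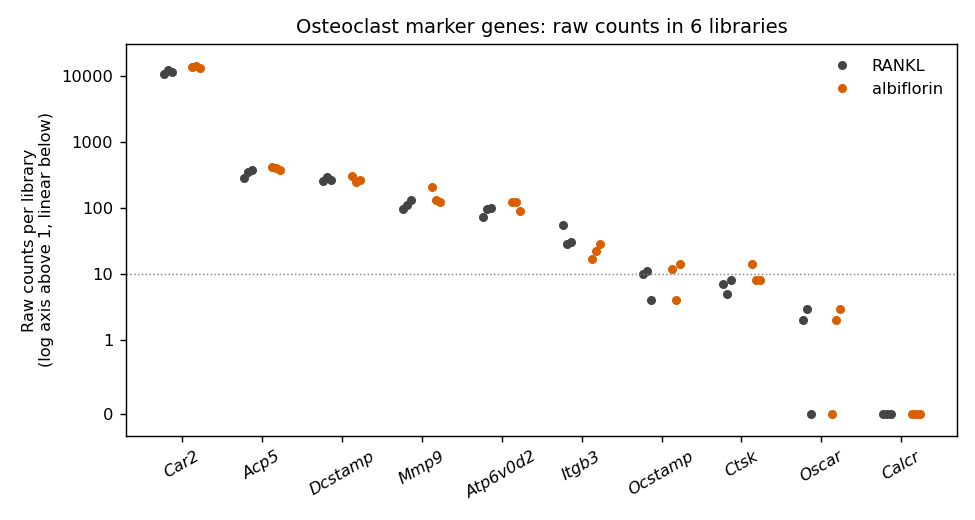
Raw counts (vertical axis, log scale above 1 and linear below) of the 10 marker genes in each RANKL and albiflorin library, 1 point per library; the dotted line marks 10 counts. Car2 has at least 10514 counts in every library, Ctsk and Ocstamp lie near 10, Oscar has 0 to 3 and Calcr has 0.

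Ordered by FPKM with RANKL, Car2 (319 ± 3.79; SD, n = 3 here and for all means) stood 22.6 times above Acp5 (14.1 ± 1.29), which stood 1.54 times above Dcstamp (9.16 ± 0.115). Atp6v0d2 (2.21 ± 0.216) and Mmp9 (2.15 ± 0.305) followed, then Itgb3 (0.449 ± 0.213), Ctsk (0.301 ± 0.0794), Ocstamp (0.155 ± 0.0706), Oscar (0.0608 ± 0.054) and Calcr (0). The libraries of Atp6v0d2 and Mmp9 overlapped, as did those of Itgb3 and Ctsk, of Ocstamp and Oscar, and of Oscar and Calcr, so these neighbours did not differ beyond their spread. Every other pair of neighbours was apart in all 3 RANKL libraries. With albiflorin Mmp9 (2.98 ± 0.727) and Atp6v0d2 (2.85 ± 0.472) overlapped again, as did Ocstamp and Oscar, and Oscar and Calcr. Ctsk (0.455 ± 0.131) was there above Itgb3 (0.265 ± 0.0722) in every library, and Itgb3 overlapped Ocstamp. This reverses only the order of the Ctsk and Itgb3 means with RANKL, where their libraries overlapped. Among all rows of the table, Car2 ranked between 105 and 128, Acp5 between 3747 and 4983 and Dcstamp between 5928 and 6327, over the 6 libraries.

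Of the 10 markers, 7 passed the filter on low counts and were tested in the fit over 13158 genes. Of these 7, Acp5 and Car2 were higher with albiflorin and 0 were lower (edgeR quasi-likelihood test, Benjamini-Hochberg adjusted p under 0.05). Over all genes tested 12.4% were called higher, 11.4% lower and 23.8% in either direction. RANKL and albiflorin libraries were fully separated for 2 of the 7, again Acp5 and Car2, against 40.1% of all genes tested. The median log2 fold change of the 7 was 0.29, against 0.01 over all genes tested, and 6 of the 7 estimates were above 0. After removal of each library's trend with listed gene length the median of the 7 was 0.17 and 5 of the 7 were above 0. At an unadjusted p under 0.05 the number lower was 1, Itgb3, while Car2, Acp5, Mmp9 and Atp6v0d2 were higher. The share of all genes tested that pass this looser threshold is not given here. The summed FPKM of the macrophage markers was also higher in all 3 albiflorin libraries, but its members were mixed. From RANKL to albiflorin, mean FPKM was higher for Cd68 (573 to 645), Cd14 (386 to 461), Fcgr1 and Msr1. It was lower for Csf1r (398 to 353), Adgre1 (28.4 to 23.1) and Mrc1, while Itgam, with 1 count in all, has no readable direction. Of these only Cd14 and Adgre1 were called. The part of the macrophage markers in the osteoclast marker values was not tested.

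**Figure D2:**
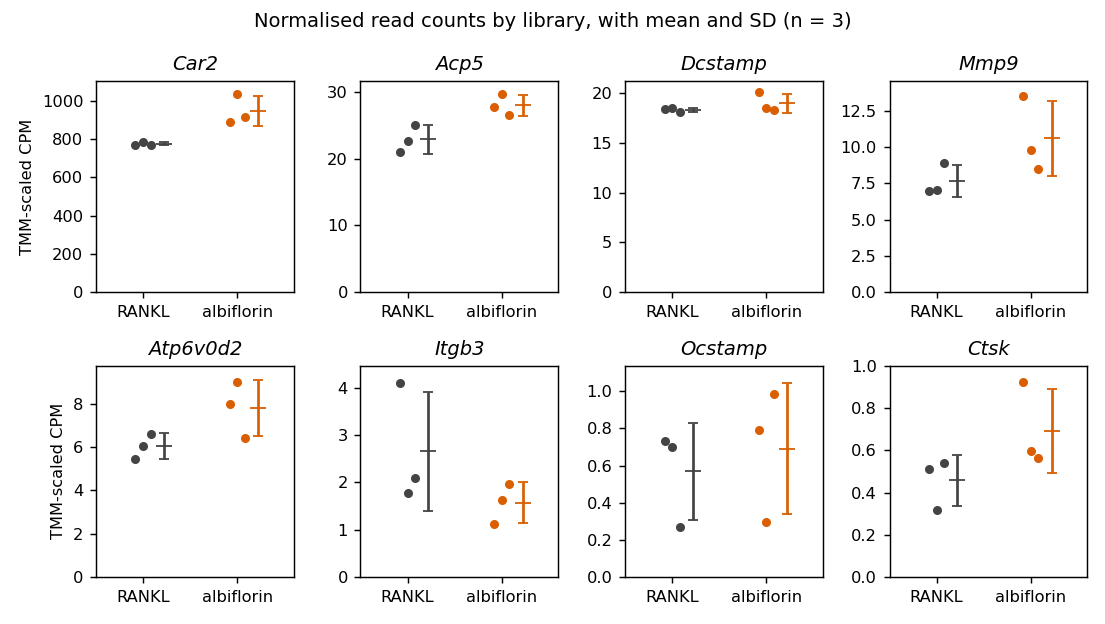
Normalised read counts (TMM-scaled CPM, vertical axis from 0) of 8 marker genes in each library, with the mean and SD of each group beside the points (n = 3). For Car2, Acp5 and Ctsk all albiflorin libraries lie above all RANKL libraries, and for the other 5 genes the groups overlap.

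Carbonic anhydrase 2 supplies the protons for acid secretion, and its gene Car2 (MGP_C57BL6NJ_G0027496, chromosome 3, 12837470 to 12853700, plus strand) was the marker with the most counts. It stood at 772, 786 and 771 CPM (counts scaled to a common library size by TMM) with RANKL and at 892, 1038 and 918 CPM with albiflorin. All 3 albiflorin libraries were higher than all 3 RANKL libraries, and albiflorin replicate 2 was the highest. The fold change was 1.22 (95% interval 1.11 to 1.35), a log2 fold change of 0.29 ± 0.0672 (SE, edgeR adjusted p = 0.00594). RANKL libraries differed little, with a coefficient of variation of 1.11% against 0.935% from counting alone, while albiflorin libraries varied by 8.22%. Values across the table moved with transcript length: the 1992 tested protein-coding genes with an mRNA within 25% of the length of that of Car2 had a median log2 fold change of 0.13. After removal of each library's trend with the gene length listed in the table, Car2 stood at 0.17 (adjusted p = 0.0485). The same removal with mRNA length gave 0.14 (adjusted p = 0.109), so the call of Car2 did not hold there. That check is limited, since mRNA lengths were found for 79.56% of tested genes, Car2 among them, and the others took the listed length.

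The other carbonic anhydrase genes measured lay far below Car2. The FPKM of Car2 was 22.9 to 23.9 times that of Car12, a membrane-bound relative, in the RANKL libraries and 26.4 to 29.6 times in the albiflorin libraries. Against the cytosolic relative Car13 the ratio was 24.3 to 28.3 and 27.1 to 34.0. Neither Car12 (log2 fold change 0.01, adjusted p = 0.948) nor Car13 (0.11, adjusted p = 0.411) was called.

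Atp6v0d2 (MGP_C57BL6NJ_G0028497, chromosome 4, 17570497 to 17619721, minus strand) encodes the d2 subunit of the proton pump, which is enriched in osteoclasts and also takes part in fusion. Its levels were 5.43, 6.05 and 6.61 CPM with RANKL and 7.98, 8.99 and 6.40 CPM with albiflorin. Albiflorin replicates 1 and 2 were above every RANKL library, and albiflorin replicate 3 was below RANKL replicate 3. The log2 fold change of 0.37 ± 0.168 was not called (edgeR adjusted p = 0.129), with a 95% interval of 1.01-fold to 1.65-fold. It passed only without albiflorin replicate 3 (0.49, adjusted p = 0.0472), and was not called in the other 15 alternatives. The widely expressed d1 subunit gene, Atp6v0d1, stood 21.4 to 26.5 times higher in FPKM than Atp6v0d2 with RANKL and 16.9 to 24.6 times higher with albiflorin. Atp6v0d1 was not called (0.09 ± 0.0636, adjusted p = 0.358) and had a negative sign, -0.10, after gene-length trend removal.

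Acp5 (MGP_C57BL6NJ_G0034969, chromosome 9, 20192467 to 20201429, minus strand) encodes TRAP, the acid phosphatase by which osteoclasts are stained, and its promoter is printed above. It stood at 20.9, 22.6 and 25.1 CPM with RANKL and at 27.7, 29.7 and 26.5 CPM with albiflorin. The groups did not overlap, though the highest RANKL library and the lowest albiflorin library were close. The fold change was 1.22 (95% interval 1.06 to 1.40; log2 fold change 0.29 ± 0.0952, edgeR adjusted p = 0.0371). An exact permutation test over the 6 libraries gave p = 0.1 for both Acp5 and Car2, two-sided, the smallest that 3 against 3 can give. Of 16 alternatives 8 kept the call of Acp5 and 8 did not, among them DESeq2 (adjusted p = 0.0501), the replicate block (adjusted p = 0.0562) and gene-length trend removal (log2 fold change 0.08, adjusted p = 0.618). Leaving out either of RANKL replicates 1 (adjusted p = 0.142) and 2 (0.0975) ended it, as did leaving out albiflorin replicate 1 (0.099) or 2 (0.13). Genes with an mRNA of like length to that of Acp5, 1453 of them, had a median log2 fold change of 0.19. The FPKM of Acp5 was 1.44 to 1.56 times that of Acp2, a lysosomal acid phosphatase gene, with RANKL and 1.88 to 2.23 times with albiflorin, and Acp2 itself was not called (-0.17 ± 0.0728, adjusted p = 0.0987).

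**Figure D3:**
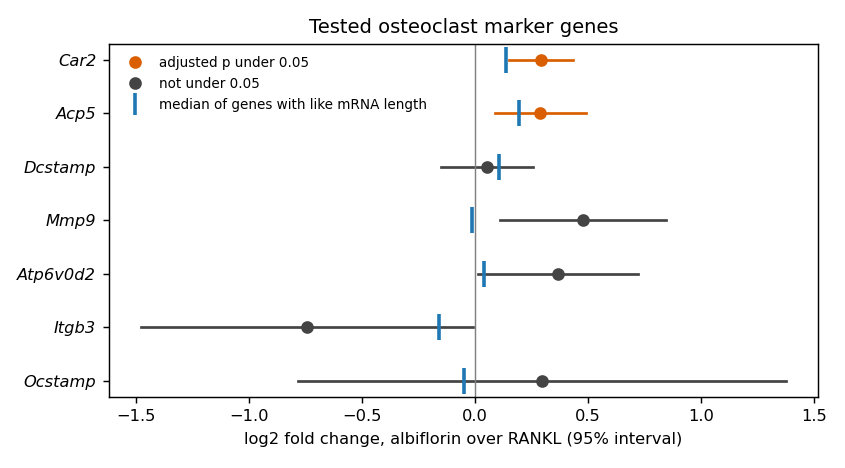
Log2 fold change of albiflorin over RANKL (horizontal axis) with its 95% interval for the 7 tested markers; blue ticks mark the median of all tested protein-coding genes whose mRNA length lies within 25% of that of the marker. Car2 and Acp5, in orange, passed at an adjusted p under 0.05, and the intervals of Itgb3 and Ocstamp are the widest.

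Matrix-digesting enzymes differed widely in depth. Mmp9 (MGP_C57BL6NJ_G0027306, chromosome 2, 175394242 to 175411062, plus strand) encodes a gelatinase that osteoclasts secrete. Its levels were 6.97, 7.07 and 8.91 CPM with RANKL and 13.5, 9.81 and 8.51 CPM with albiflorin. Albiflorin replicate 1 was far above the rest, and albiflorin replicate 3 was below RANKL replicate 3. The log2 fold change was 0.48 ± 0.173, a fold change of 1.39 with an interval of 1.08 to 1.79, and was not called (edgeR adjusted p = 0.0579). Without albiflorin replicate 1 it was 0.25 (adjusted p = 0.364), whereas it passed without RANKL replicate 3 (0.60, adjusted p = 0.0406), without albiflorin replicate 3 (0.61, adjusted p = 0.0159) and with no filter on low counts (0.46, adjusted p = 0.0156). Genes with an mRNA of like length to that of Mmp9 had a median log2 fold change of -0.01, and after gene-length trend removal Mmp9 stood at 0.45 (adjusted p = 0.0837). Timp2, which encodes an inhibitor of metalloproteinases, stood at 3.34 ± 0.322 and 3.27 ± 0.111 FPKM (log2 fold change -0.03, adjusted p = 0.888). Mmp14, the membrane-bound metalloproteinase gene, had 1 count in RANKL replicates 1 and 3 and none elsewhere.

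Ctsk (MGP_C57BL6NJ_G0028004, chromosome 3, 99797787 to 99809616, plus strand) encodes cathepsin K, the collagen-cutting protease of the resorption space. It had 7, 5 and 8 counts with RANKL and 14, 8 and 8 counts with albiflorin, and did not pass the filter. Per library this was 0.514, 0.319 and 0.54 CPM with RANKL and 0.923, 0.595 and 0.562 CPM with albiflorin. Although the groups did not overlap, the gap between RANKL replicate 3 and albiflorin replicate 3 was less than 1 count. Summed over libraries the level was 0.453 CPM (exact Poisson 95% interval 0.277 to 0.7) from 20 counts and 0.7 CPM (0.472 to 1.00) from 30 counts. Their ratio of 1.55 had an exact interval of 0.849 to 2.87, which covers counting error only, so a difference was not detectable at this depth. In the fit with no filter on low counts Ctsk was not called either (log2 fold change 0.60 ± 0.569, edgeR adjusted p = 0.602).

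Other cathepsin genes, whose products digest protein in lysosomes, were among the abundant mRNAs of the same libraries. The FPKM of Ctsb was 1278 to 1984 times that of Ctsk with RANKL and 718 to 1252 times with albiflorin. For Ctss the ratio was 1687 to 2691 and 1225 to 1973, and for Ctsl 558 to 938 and 386 to 651. Ctss rose with albiflorin (0.31 ± 0.0655, adjusted p = 0.00324) and so did Ctsl (0.26 ± 0.0624, adjusted p = 0.00716), while Ctsb was not called (-0.01 ± 0.0672, adjusted p = 0.953). Gene-length trend removal ended the calls of both Ctss (0.07, adjusted p = 0.411) and Ctsl (0.10, adjusted p = 0.221). With the mRNA-length trend removed Ctss was not called (0.09, adjusted p = 0.25), but Ctsl was (0.44, adjusted p = 0.001).

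**Figure D4:**
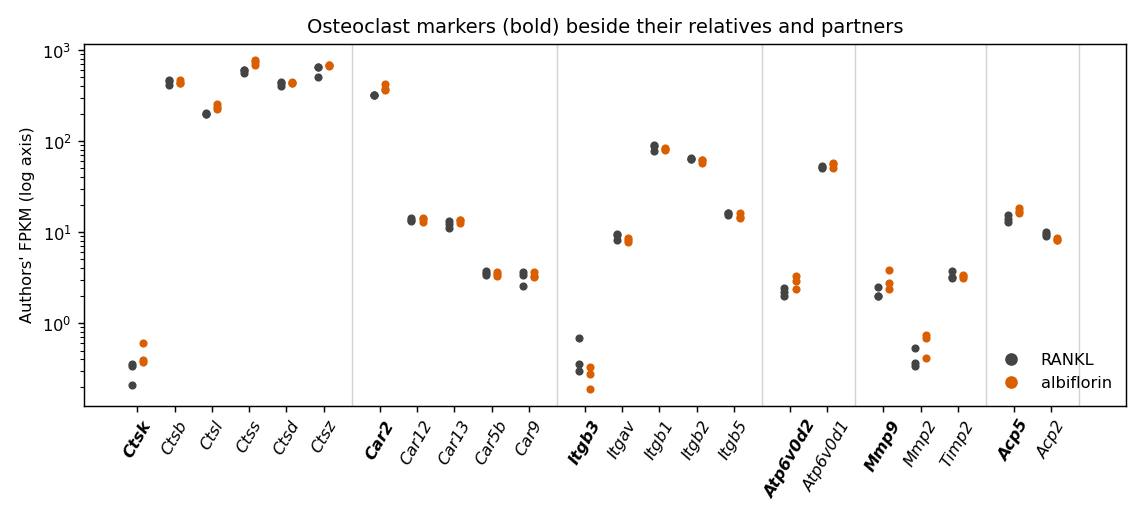
The authors' FPKM (vertical log axis) in each RANKL and albiflorin library, 1 point per library, for 6 osteoclast markers in bold and beside each its relatives or partners. Ctsk, Itgb3 and Atp6v0d2 lie below every relative shown beside them, while Car2 and Acp5 lie above theirs.

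Itgb3 (MGP_C57BL6NJ_G0019670, chromosome 11, 111108808 to 111169494, plus strand) encodes the integrin beta 3 chain, the osteoclast partner of alpha v in the vitronectin receptor. It had 56, 28 and 31 counts with RANKL and 17, 22 and 28 counts with albiflorin, or 4.11, 1.78 and 2.09 CPM and 1.12, 1.64 and 1.97 CPM. RANKL replicate 1 was 2.30 times the lowest RANKL library, RANKL replicate 3 was just above the highest albiflorin library, and RANKL replicate 2 lay within the albiflorin range. Its log2 fold change of -0.75 ± 0.347 was not called (edgeR adjusted p = 0.134), with a fold change of 0.596 and a 95% interval of 0.359 to 0.992. Without RANKL replicate 1 it was -0.30 (adjusted p = 0.604), and all 15 alternatives that gave a value were negative and not called. The coefficient of variation with RANKL was 47.5%, against 16.2% from counting alone. Itgav, the alpha v gene, stood at 9.03 ± 0.748 and 8.20 ± 0.345 FPKM, 13.3 to 32.0 and 25.7 to 43.6 times the FPKM of Itgb3. Itgav was not called (-0.13 ± 0.0696, adjusted p = 0.183) and had a positive sign, 0.05, after gene-length trend removal. Beta chains of other integrins were higher still, with Itgb1 at 126 to 299 and Itgb2 at 92.0 to 212 times the FPKM of Itgb3 in the RANKL libraries.

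Fusion genes were split between a steady gene and one near the floor. Dcstamp (MGP_C57BL6NJ_G0022222, chromosome 15, 39648304 to 39664430, plus strand) encodes a membrane protein needed for osteoclast precursors to fuse. It stood at 18.4, 18.5 and 18.1 CPM with RANKL and at 20.1, 18.5 and 18.3 CPM with albiflorin. Apart from albiflorin replicate 1, the 5 libraries lay within the same narrow range. The log2 fold change was 0.05 ± 0.0959 (edgeR adjusted p = 0.745), and its 95% interval ran from 0.901-fold to 1.19-fold. The sign was negative after gene-length trend removal (-0.11) and without albiflorin replicate 1 (-0.0022), neither of them called. Ocstamp (MGP_C57BL6NJ_G0027316, chromosome 2, 175895729 to 175909130, minus strand), whose product also acts in fusion, had 10, 11 and 4 counts with RANKL and 12, 4 and 14 with albiflorin. One library of each group was low and the ranges overlapped (0.27 to 0.734 and 0.297 to 0.984 CPM). The log2 fold change of 0.30 ± 0.51 (adjusted p = 0.725) had a 95% interval of 0.581-fold to 2.60-fold, and its sign turned without RANKL replicate 3 (-0.040) or albiflorin replicate 3 (-0.030), neither called. The tetraspanin gene Cd9, also linked to fusion, rose from 233 ± 6.32 to 311 ± 29.5 CPM (0.41 ± 0.0694, adjusted p = 0.000865). Cd9 was still called after gene-length trend removal (0.26, adjusted p = 0.00697) but not after mRNA-length trend removal (0.16, adjusted p = 0.0762).

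Of the receptors, Oscar (MGP_C57BL6NJ_G0031964, chromosome 7, 506259 to 512603, minus strand) encodes a collagen-binding receptor that costimulates osteoclast formation. It had 2, 3 and 0 counts with RANKL and 0, 2 and 3 with albiflorin, 5 in each group, a ratio of 1.03 with an exact counting interval of 0.237 to 4.48. OSCAR signals through the adaptor encoded by Fcer1g, which stood at 159 ± 2.75 FPKM with RANKL and rose to 196 ± 21.0 (0.30 ± 0.0719, adjusted p = 0.00664). The related adaptor gene Tyrobp rose from 399 ± 28.0 to 527 ± 61.1 FPKM (0.41 ± 0.0798, adjusted p = 0.0022). After gene-length trend removal Fcer1g (-0.039) and Tyrobp (-0.0093) had the opposite sign and were not called. Calcr (MGP_C57BL6NJ_G0030859, chromosome 6, 429031 to 507974, minus strand), the receptor gene for calcitonin, the hormone that halts resorption, had 0 counts in all 6 libraries. Taking 3 counts over all 6 libraries as the limit, this allows up to 0.0345 CPM or 0.00882 FPKM. Calcrl, the related receptor gene, was present at 16.9 ± 2.3 FPKM with RANKL and fell to 13.3 ± 1.03 (-0.34 ± 0.0885, adjusted p = 0.0104). It was chosen after its values were seen, and its call was not checked under the alternatives, length trend removal among them.

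Around the markers, 3 lists of related genes were counted, chosen with earlier results of these data known. Among 25 tested partners and relatives of the markers 6 were higher and 1 lower, with a median log2 fold change of 0.03, against shares of 12.4% higher and 11.4% lower over all genes tested. Of 22 other tested osteoclast and resorption genes 2 were higher and 4 lower, with a median of -0.14, beside the same 12.4% and 11.4% over all genes. In that list Plekhm1, a vesicle-trafficking gene of the ruffled border, fell from 183 ± 1.14 to 138 ± 11.5 CPM (-0.41 ± 0.0659, adjusted p = 0.000694), and was still lower after gene-length trend removal (-0.33, adjusted p = 0.00143). The anion exchanger gene Slc4a2 fell (-0.31 ± 0.0734, adjusted p = 0.00656). Gene-length trend removal ended that call (-0.17, adjusted p = 0.125), while mRNA-length trend removal kept it (-0.23, adjusted p = 0.0401). The proton pump subunit gene Atp6v1h rose (0.29 ± 0.0682, adjusted p = 0.0067). It stood at 0.46 (adjusted p = 0.000762) after gene-length trend removal, but at 0.18 and not called (adjusted p = 0.0632) after mRNA-length trend removal. Whether this call holds thus depends on the length used. The chloride exchanger gene Clcn7 (-0.17 ± 0.0727, adjusted p = 0.103) and the pump subunit gene Tcirg1 (-0.11 ± 0.0662, adjusted p = 0.265) were not called.

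Transcription factors that act on the markers were mixed, with 7 of 21 tested higher, 2 lower and a median log2 fold change of -0.01, beside 12.4% higher and 11.4% lower over all genes. Nfatc1, the factor that drives the markers, fell from 143 ± 7.45 to 122 ± 5.50 CPM (-0.22 ± 0.0633, adjusted p = 0.018). Gene-length trend removal ended that call (-0.10, adjusted p = 0.209). So did leaving out RANKL replicate 2 (adjusted p = 0.0816), or either of albiflorin replicates 1 (0.0506) and 2 (0.0575). The AP-1 genes Fos (19.8 ± 4.5 to 258 ± 99.5 CPM), Jun (49.6 ± 2.93 to 108 ± 27.5 CPM) and Junb (107 ± 10.4 to 207 ± 15.2 CPM) rose, and were called higher in each of the 16 alternatives. Prdm1, the repressor gene that relieves brakes on osteoclast formation, had 0 counts in all 6 libraries.

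Among 9287 genes of at least 10 CPM, the pattern most like that of Car2 over the 6 libraries was shown by Apip (Pearson r = 0.997), Uqcrc1 (0.996) and Akr1b10 (0.996). For Acp5 it was an unnamed additional row (0.992), 1110059G10Rik (0.989) and Ndc80 (0.987), and for Dcstamp Cbr4 (0.985), Irf7 (0.978) and C1galt1c1 (0.939). These correlations rest on 6 libraries that share a group difference and a length trend, and they describe likeness only.

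**Figure D5:**
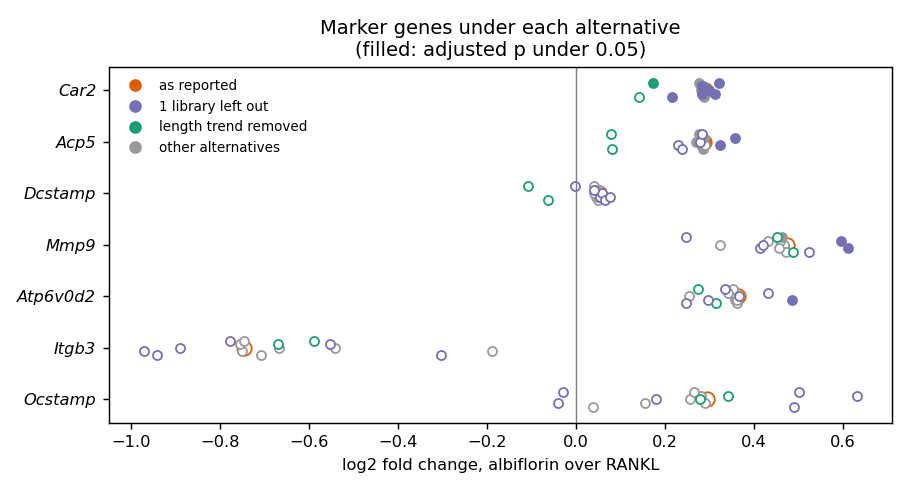
Log2 fold change of albiflorin over RANKL (horizontal axis) for the 7 tested markers as reported and under each alternative; filled points had an adjusted p under 0.05. Car2 is filled except with the mRNA-length trend removed, Acp5 is filled in 8 of 16 alternatives, and all points of Itgb3 are left of 0.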

How the data were processed

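The authors deposited a table of raw read counts per gene for 6 libraries and a matching table of FPKM values, whose values were proportional to count over gene length within each library. Per the submitters' processing notes, the tools were HISAT2 2.2.1, CASAVA 1.8, fastp, DESeq2 1.42.0 and featureCounts 2.0.6-p3, listed without roles. No genome build is named in the labels, and coordinates are those of the count table unless credited to RefSeq. Use of strand in counting is not stated either, so reads of overlapping or antisense genes cannot be told apart. Gene identifiers are of C57BL/6NJ while the line has a BALB/c background, and any effect of strain variants on counting was not tested.

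The counts were tested in R 4.3.3 with edgeR 4.0.16 (low counts removed by filterByExpr, scaling by TMM, quasi-likelihood F-test on group alone, Benjamini-Hochberg adjustment over 13158 genes, threshold 0.05). SEs were derived from the F statistics. Intervals and limits from counts cover counting error only; the smallest exact permutation p is 0.1. The members and lists were chosen with earlier results of these data known. The text names the 10 members, 12 partner genes (Atp6v0d1, Itgav, Fcer1g, Tyrobp, Ctsb, Ctsl, Mmp14, Timp2, Nfatc1, Fos, Clcn7, Tcirg1) whatever their result, in each list up to 3 called genes by smallest p, and the 3 most alike patterns of each member over 10 CPM. Any other gene was chosen after its values were seen.

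Alternatives were RLE scaling, DESeq2 1.42.0, limma-voom (limma 3.58.1), no filter, a mean of at least 1 CPM, the replicate number as a block, each library left out, limma on log2(FPKM + 1) and log2(FPKM + 0.1), and each library's lowess trend (span 0.3) removed on the listed gene length or on the mRNA length of GENCODE M21 principal transcripts, which was found for 79.56% of tested genes (the others took the listed length). The missing lengths limit the mRNA-length check. The fit was also run on counts simulated from the means and dispersions of these data, with no length trend. That run checks the code only and does not bear on the calls.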

Additional observations from a re-analysis of the deposited data

How the results depend on the processing

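The number of markers called higher, 2 as reported, was 1 with DESeq2, with the replicate block and with the gene-length trend removed. It was 3 with no filter on low counts. With the mRNA-length trend removed it was 0, in a check limited by the genes that had no mRNA length. When 1 library was left out it was 1 to 4 (4 without albiflorin replicate 3, 3 without RANKL replicate 3, 1 without each of the other 4). None was called lower in any alternative. Over all genes 1631 were higher and 1496 lower. With the gene-length trend removed 945 were higher, and with the mRNA-length trend removed 663 were higher and 724 lower. On log2(FPKM + 1) 901 were lower and on log2(FPKM + 0.1) 909. With 1 library left out 984 to 1753 were higher and 914 to 1644 lower, with the lowest counts of higher genes without albiflorin replicates 1 (984) and 2 (1025) or RANKL replicate 2 (1010), and of lower genes without RANKL replicate 2 (914) or albiflorin replicate 1 (977). The replicate block gave 1358 higher and 1214 lower. Same-numbered libraries did not deviate together (correlations 0.0219, -0.0433 and -0.0664), so the numbers are not taken as pairs. The cause of these shifts was not tested.

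Signs that turned, in genes that were not called in either setting unless stated, were these. With the gene-length trend removed Dcstamp stood at -0.11, Atp6v0d1 at -0.10, Itgav at 0.051, Ctsb at 0.024, and the called Fcer1g and Tyrobp at -0.039 and -0.0093. With the mRNA-length trend removed the values were -0.062, -0.087, 0.074, 0.10, -0.10 and -0.035 in the same order, and Timp2 stood at 0.019. With 1 library left out Dcstamp ranged from -0.0022 to 0.076, Ocstamp from -0.040 to 0.63, Ctsb from -0.056 to 0.031 and Timp2 from -0.083 to 0.052. The order of the 10 markers by mean FPKM in the RANKL libraries was the same when computed from counts and TMM-scaled library sizes. Depth limits Ocstamp, Ctsk, Oscar and Calcr, with 55, 50, 10 and 0 counts in all 6 libraries together.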
